A study of Mus musculus with 12 samples.

Results

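The genes described here make the cornified envelope and the granular layer of stratified, skin-type epithelium: Lor, Flg, Rptn, Krtdap, Dmkn, Sbsn, Cnfn, Ivl and Cdsn. They are 9 of 18194 mouse genes measured on an Affymetrix array, taken as probe sets that carry a listed gene symbol and no other. Where a gene had several probe sets, the one with the highest mean log2 intensity over 12 arrays stood for it. The genes were listed with their behaviour after loss of Dscr1 already known, and were in effect chosen by their intensity difference between Dscr1-null and other intact corneas. Their differences between Dscr1 genotypes are therefore given as a description, without a test.

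In cornified epithelium, keratinocytes that leave the basal layer pass through a spinous and a granular layer and die as flat cells. Beneath the membrane of those cells, transglutaminases cross-link loricrin, involucrin, repetin and related proteins into the cornified envelope. Filaggrin packs the keratin filaments, and corneodesmosin holds the dead cells together until they are shed. The corneal surface is normally a wet, non-cornified stratified epithelium.

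RNA came from whole corneas of C57BL/6J mice, with 1 array for each sample. The 8 intact samples form 4 genotypes with 2 biological replicates each: wild type (WT), ApoE-/- (ApoeKO), Dscr-1-/- (Dscr1KO) and the double null for both genes (DKO). Another 4 corneas were sutured, with a single array apiece: WT and Dscr1KO were taken on day 5, and WT and the transgenic Dscr-1 Tg on day 7. Dscr1 is an older name of Rcan1, a regulator of the phosphatase calcineurin. No allele carried by every group is named in the labels, and the transgene's promoter and the sex and age of the mice are not stated there. The Dscr1KO and DKO samples are together called Dscr1-null below, and the intact WT and ApoeKO samples Dscr1-bearing.

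Values are array intensities scaled to a common level, and the number of arrays limits their precision. The lowest 20% of values on each array lay at or below 3.2 to 4.3, so readings of a few units are dim. Rcan1 read from 581.3 to 668.2 in the Dscr1-bearing arrays and from 331.7 to 477.5 in the intact Dscr1-null arrays, and which exons the null allele lacks is not stated in the labels. Apoe goes against a label: in the library labelled ApoeKO replicate 1 it stood at 849.3, and in ApoeKO replicate 2 at 7.5. The library labelled Dscr1KO replicate 2 read 316.8 for Apoe, and its labels name both the Dscr-1-/- and the ApoE-/- genotype. Xist, which coats the silent X chromosome, was between 4104 and 5385.2 in both ApoeKO arrays, both intact Dscr1KO arrays and DKO replicate 1, and 19.6 or less on the other arrays. Photoreceptor markers summed to 5105 in DKO replicate 1 and to 406.7 or less on the other arrays. Krt12, the keratin that defines corneal epithelium, read from 5291.1 to 10080.3 on all 12 arrays.

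The stretches before the start sites are shown for the members in which a script found the letters TGANTCA, a pattern that is its own reverse complement. Its forms TGAGTCA and TGACTCA are the usual binding letters of AP-1, a family of Fos and Jun factors known for their part in keratinocyte differentiation. The sequences come from RefSeq promoters of build GRCm38.p6, in which all 9 members were found, and each shows 20 bases on either side of the match nearest the start, with the match in capitals. Coordinates and strand are chr3:92083164-92083210 (-) for Lor, chr3:92573825-92573871 (-) for Ivl, chr3:93273423-93273469 (+) for Flg and chr3:93393583-93393629 (+) for Rptn. They are chr7:30751332-30751378 (+) for Sbsn, chr7:30776303-30776349 (+) for Dmkn, which has several listed starts, and chr7:30787804-30787850 (+) for Krtdap.
Lor: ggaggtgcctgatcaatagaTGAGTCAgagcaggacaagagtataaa
Ivl: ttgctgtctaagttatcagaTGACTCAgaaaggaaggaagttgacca
Flg: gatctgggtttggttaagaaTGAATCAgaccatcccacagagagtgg
Rptn: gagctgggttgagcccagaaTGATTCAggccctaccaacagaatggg
Sbsn: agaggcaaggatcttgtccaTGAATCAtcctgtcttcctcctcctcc
Dmkn: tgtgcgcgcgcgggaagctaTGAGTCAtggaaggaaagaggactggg
Krtdap: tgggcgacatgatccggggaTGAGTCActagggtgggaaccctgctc
These matches start between 48 bases (Lor) and 119 bases (Sbsn) upstream of the start site. In the 250 bases upstream, 7 of 9 members held TGANTCA, against 7.82% of 27025 genes with a listed promoter. The forms TGAGTCA or TGACTCA stood in 4 members (Lor, Krtdap, Dmkn and Ivl), against 5.16% of all genes. TATAAA, read on both strands, stood in 5 members (Lor, Flg, Rptn, Krtdap and Ivl), against 14.3% of all genes. GGAAA, the core letters of sites for NFAT, the factor that calcineurin activates, stood on either strand in 4 members, against 58.8% of all genes. Cnfn and Cdsn did not hold TGANTCA in this window. A match describes letters only, and Ivl, whose level moved the other way from the rest, held TGANTCA as well.

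Across the 8 intact corneas, 8 of the 9 genes were higher in every Dscr1-null array than in any Dscr1-bearing array, and Ivl was lower in every one. Over all 12711 genes that passed the filter on dim genes, 16.7% were higher without overlap of the groups and 17.8% were lower. Nothing is read from these counts for the members, since the genes were chosen with this contrast known. In bulk samples, fewer cells of a type and less RNA per cell cannot be told apart.

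**Figure D1:**
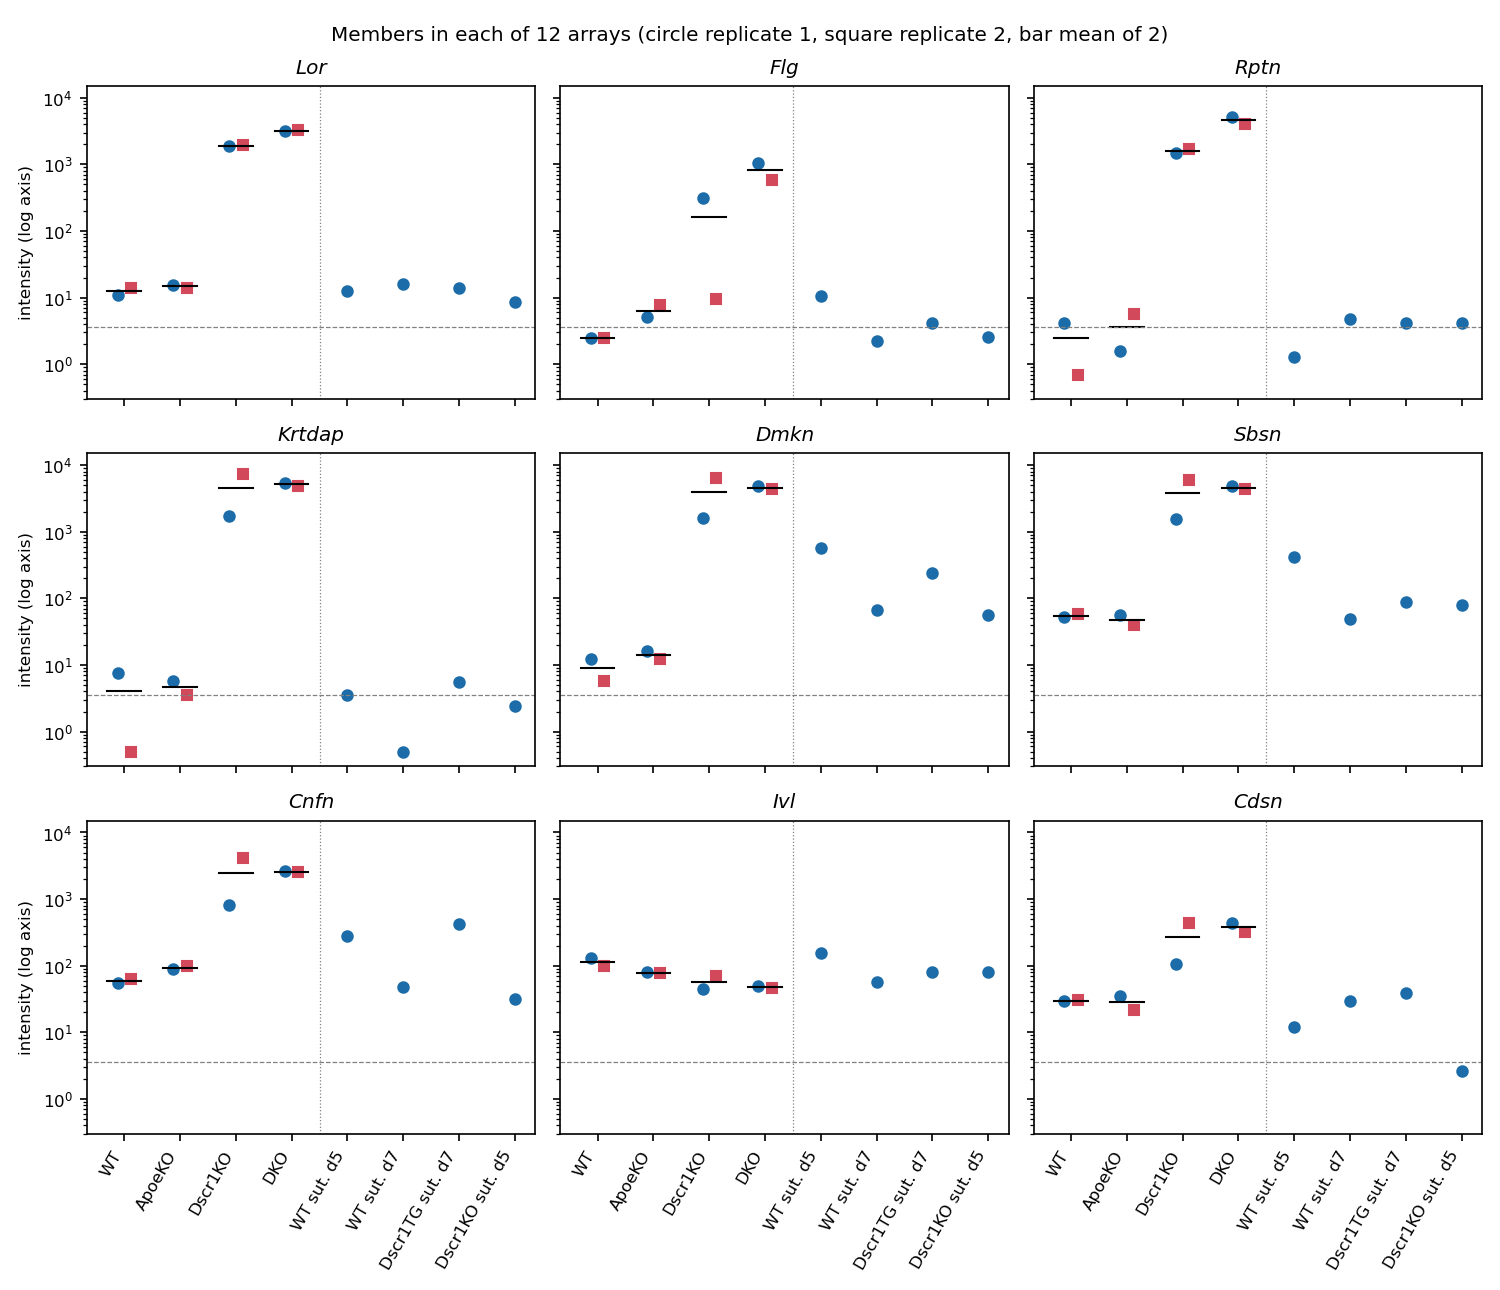
Intensity (log axis) of the 9 genes in 12 arrays, with intact groups left of the dotted line and single sutured arrays right of it; circles are replicate 1, squares replicate 2, bars the mean of 2, and the dashed line marks 3.6, the constant added before taking logs. Lor reads 1862.9 to 3241.9 in the 4 intact Dscr1-null arrays and 15.8 or less on the other arrays, Ivl goes the opposite way, and Dmkn, Sbsn and Cnfn also rise above intact WT in sutured WT at day 5.

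Lor encodes loricrin, a glycine-rich protein that makes up much of the envelope. WT arrays read 10.8 and 14.1, the ApoeKO arrays 15.4 and 14.1, the Dscr1KO arrays 1862.9 and 1944.5, and the DKO arrays 3186.5 and 3241.9. Sutured WT went from 12.6 (day 5) to 15.8 (day 7), with 8.6 in sutured Dscr1KO and 13.9 in Dscr-1 Tg. All sutured arrays, the Dscr1-null array among them, thus lay near or below the Dscr1-bearing intact arrays. The mean difference between Dscr1-null and Dscr1-bearing intact corneas was 7.18 ± 0.12 (SE, 4 against 4 arrays) on the scale log2(intensity + 3.6), on which all differences here are given. That constant makes the size of a difference from a dim level smaller and partly arbitrary. A probe set of Lor that can also match related transcripts read 0.3 to 2.6 in Dscr1-bearing and 1994.7 to 6275.6 in Dscr1-null intact corneas, a difference of 9.45. The remaining, dim probe set read 2.7 to 7.3 and 23 to 28.9 in the same groups.

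Rptn encodes repetin, an envelope precursor of the S100-fused family to which filaggrin also belongs. The WT arrays read 4.2 and 0.7, the ApoeKO arrays 1.6 and 5.7, the Dscr1KO arrays 1478 and 1715.9, and the DKO arrays 5134.3 and 3994.8. After suturing, the WT readings were 1.3 (day 5) and 4.7 (day 7), the Dscr1KO reading 4.1 and the Dscr-1 Tg reading 4.1. The replicates within each Dscr1-null genotype were close, and both DKO arrays lay above both Dscr1KO arrays. The mean difference for Dscr1 loss was 8.73 ± 0.26. Both other probe sets of Rptn were dim, stayed between 3 and 12.9 on all arrays and showed no such difference.

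Flg encodes profilaggrin, the granule protein that is cut into filaggrin. The WT arrays read 2.5 and 2.5, the ApoeKO arrays 5.1 and 7.7, the Dscr1KO arrays 318 and 9.5, and the DKO arrays 1046.5 and 574.1. Sutured WT went from 10.7 (day 5) to 2.2 (day 7), with 2.6 in sutured Dscr1KO and 4.2 in Dscr-1 Tg. The 4 Dscr1-null arrays were thus spread over a wide range, and Dscr1KO replicate 2 lay 1.23 times above the highest Dscr1-bearing array and below sutured WT at day 5. The mean difference of 4.85 ± 0.86 had the largest SE among the 9 genes.

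Ivl encodes involucrin, an early scaffold of the envelope, and differed in direction. The WT arrays read 130.8 and 99.4, the ApoeKO arrays 80.8 and 77.4, the Dscr1KO arrays 44.1 and 70, and the DKO arrays 49 and 45.9. After suturing, the WT readings were 153.7 (day 5) and 57.6 (day 7), the Dscr1KO reading 81.1 and the Dscr-1 Tg reading 79.5. The intact groups did not overlap, although the gap from 70 to 77.4 was small beside the spread within WT. Dscr1 loss went with a difference of -0.84 ± 0.19. The other Ivl probe set was dim throughout, at 1.4 to 5.8 in Dscr1-null and 2.7 to 13.4 in Dscr1-bearing intact corneas, and its groups overlapped.

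Krtdap, Dmkn and Sbsn lie side by side on chromosome 7 and encode secreted proteins of differentiating keratinocytes. For Krtdap the WT arrays read 7.5 and 0.5, the ApoeKO arrays 5.8 and 3.6, the Dscr1KO arrays 1697.1 and 7451.7, and the DKO arrays 5433.2 and 4807. Sutured WT went from 3.6 (day 5) to 0.5 (day 7), with 2.4 in sutured Dscr1KO and 5.5 in Dscr-1 Tg. Its difference for Dscr1 loss was 9.16 ± 0.48, the largest among the 9 genes, from a level at the added constant.

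For Dmkn, dermokine, the WT arrays read 12.1 and 5.7, the ApoeKO arrays 16.3 and 12.2, the Dscr1KO arrays 1612.2 and 6332.3, and the DKO arrays 4869.8 and 4350.8. Sutured WT read 560.4 at day 5 and 67.5 at day 7, sutured Dscr1KO 55.7 at day 5, and sutured Dscr-1 Tg 242.5 at day 7. All 4 sutured arrays lay above the 4 Dscr1-bearing intact arrays and below the 4 intact Dscr1-null arrays. The mean difference between the intact groups was 8.03 ± 0.40.

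Sbsn, suprabasin, is a component of suprabasal cells that transglutaminase can cross-link. The WT arrays read 51.7 and 57.5, the ApoeKO arrays 56.4 and 39.4, the Dscr1KO arrays 1576.2 and 5963.7, and the DKO arrays 4775.8 and 4303.7. After suturing, the WT readings were 418.9 (day 5) and 49.3 (day 7), the Dscr1KO reading 78.6 and the Dscr-1 Tg reading 87.7. Sutured WT at day 5 stood apart from the other sutured arrays, which lay much nearer to intact WT. The mean difference for Dscr1 loss was 6.10 ± 0.37. Both other Sbsn probe sets gave the same separation, with differences of 6.31 and 5.97.

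Cnfn, cornifelin, is an envelope protein encoded elsewhere on chromosome 7. WT arrays read 54.2 and 62.5, the ApoeKO arrays 88.3 and 97.5, the Dscr1KO arrays 829.1 and 4099.1, and the DKO arrays 2636.8 and 2519.1. Sutured WT went from 278.1 (day 5) to 47.6 (day 7), with 31.8 in sutured Dscr1KO and 428.7 in Dscr-1 Tg. Sutured WT at day 5 and sutured Dscr-1 Tg at day 7 therefore stood well above the other sutured arrays. The mean difference for Dscr1 loss was 4.82 ± 0.43.

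Cdsn, corneodesmosin, lies on chromosome 17 and belongs to the junctions that hold cornified cells together. The WT arrays read 29.6 and 30.5, the ApoeKO arrays 34.9 and 21.5, the Dscr1KO arrays 106.6 and 441.4, and the DKO arrays 440.3 and 324. After suturing, the WT readings were 12.1 (day 5) and 29.3 (day 7), the Dscr1KO reading 2.6 and the Dscr-1 Tg reading 38.9. The lowest Dscr1-null intact array lay 3.05 times above the highest Dscr1-bearing intact array, and the mean difference was 3.17 ± 0.40. The sutured Dscr1KO array gave the lowest Cdsn reading of all 12.

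Over the 9 genes, the median difference for Dscr1 loss was 6.10, against -0.02 over all 12711 genes tested, as a description of how they were chosen. Without the libraries labelled ApoeKO replicate 1 and Dscr1KO replicate 2 the median was 5.91, Flg stood at 5.91 and Ivl at -0.99. Among the 5 intact arrays with Xist (3 Dscr1-null, 2 Dscr1-bearing), 8 genes were higher and Ivl lower without overlap. The same held among the 3 intact arrays without Xist, of which 1 was Dscr1-null. The share of all genes that separate in such small splits was not counted, and the members were chosen on this contrast. Nothing is therefore read from either split. By pair of genotypes, Dscr1KO differed from WT by a median of 5.72, DKO from WT by 7.0 and DKO from ApoeKO by 6.48. These pairs share arrays and are not independent. All 9 genes passed the filter on dim genes, but Flg, Rptn and Krtdap would not have passed on the arrays other than the 4 intact Dscr1-null ones.

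The 2 intact Dscr1KO arrays disagreed for most of these genes, and in opposite directions. Replicate 2 read higher than replicate 1 by 4.94 times for Cnfn, 4.39 times for Krtdap, 4.14 times for Cdsn, 3.93 times for Dmkn and 3.78 times for Sbsn. Flg went the other way, with replicate 1 reading 33.5 times replicate 2. Lor and Rptn, by contrast, read 1.04 and 1.16 times replicate 1 in replicate 2. Of the 9 genes, 5 were thus higher in replicate 2 by at least 1 on the log2 scale, against 4.76% of all genes tested, and 1 was lower by as much, against 8.13%. In DKO the replicates differed by at most 0.86 on the log2 scale, for Flg. Replicate 2 is the Dscr1KO library whose labels name both genotypes, and whether this bears on its readings was not tested.

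**Figure D2:**
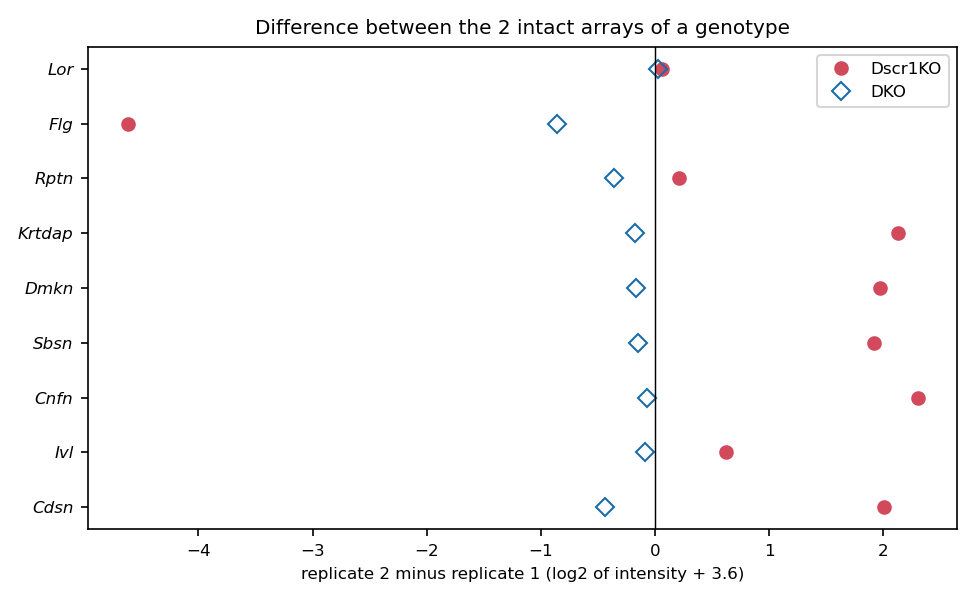
Difference between the 2 intact arrays of Dscr1KO (filled circles) and of DKO (open diamonds) for the 9 genes, as replicate 2 minus replicate 1 on the log2 scale. In Dscr1KO, Flg lies at -4.62 and Cnfn at 2.30, while Lor lies at 0.06; in DKO all 9 genes lie between -0.86 and 0.02.

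Other genes of this layer were set beside the order seen in Flg, so their counts are a description. In Flg the order was DKO replicate 1, DKO replicate 2, Dscr1KO replicate 1 and then Dscr1KO replicate 2. Of 7 tested Lce1 genes, which encode late envelope proteins of skin, 6 had this order and 7 were lower in Dscr1KO replicate 2, against 5.72% and 55.1% of all genes tested. Lce1f, for example, read 420.6 in Dscr1KO replicate 1 and 59.4 in replicate 2. Of 4 Lce3 genes and 14 barrier lipid genes, 0 had that order, and all were higher in replicate 2, as were 44.8% of all genes. Krt1, a suprabasal keratin of skin, read 3806 in Dscr1KO replicate 1 and 221.5 in replicate 2, and its partner Krt10 read 5532.2 and 4789.1. Lce1 probe sets can hybridise to transcripts of near-identical copies, so these genes are not separate measurements.

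The ApoE-/- label was tested for these genes where Dscr1 was present and where it was absent. Apoe itself read 849.3 in ApoeKO replicate 1, against 1030.5 and 776.5 in WT, so the label is not a measured loss in that library. Xist read 4622.1 and 4598 in ApoeKO and 14.9 and 8.9 in WT. In that comparison Xist status and the Apoe label cannot be told apart. In ApoeKO against WT, 0 of 9 genes passed (limma with Benjamini-Hochberg adjustment, adjusted p = 1 for each), beside 0.0236% of all genes, that is 3 genes, while 477 genes had an unadjusted p under 0.05. The differences ranged from -0.51 ± 0.27 for Ivl to 0.70 ± 1.21 for Flg. In DKO against Dscr1KO, 0 of 9 genes passed as well, beside 0.0236% of all genes (3 genes, and 1363 at an unadjusted p under 0.05). Lor was higher in DKO by 0.75 ± 0.17 (adjusted p = 0.305), Rptn by 1.51 ± 0.36 (adjusted p = 0.336) and Flg by 3.58 ± 1.21 (adjusted p = 0.411). For these 3 genes both DKO arrays lay above both Dscr1KO arrays, as did 16.4% of all genes tested. The other 6 genes differed by -0.22 to 0.78, with overlapping arrays and adjusted p from 0.649 to 0.81.

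These results turned on the Dscr1KO arrays. Without Dscr1KO replicate 1, the fit called Flg (5.89, adjusted p = 0.0111), and Krtdap, Dmkn, Sbsn, Cnfn and Cdsn changed sign. Without Dscr1KO replicate 2 Flg stood at 1.28 (adjusted p = 0.171), and the fit called Sbsn (1.52, adjusted p = 0.04) and Cnfn (1.63, adjusted p = 0.0133). In both cases 1 array of Dscr1KO is assumed to vary like the other groups. The interaction, the difference between the effects of Dscr1 loss under both Apoe labels, passed for 0 of 9 genes, beside 0.00787% of all genes (1 gene, and 964 at an unadjusted p under 0.05). It was 0.55 ± 0.24 for Lor (adjusted p = 0.658), 1.24 ± 0.51 for Rptn (adjusted p = 0.652) and 2.88 ± 1.71 for Flg (adjusted p = 0.724). The interaction and the tests by Apoe label use the intact arrays by which the members were in effect chosen. Flg, Rptn and Krtdap also passed the filter only through the Dscr1-null arrays among them. Without Dscr1KO replicate 1, Flg passed (5.19, adjusted p = 0.0416), and without replicate 2 it stood at 0.575 (adjusted p = 0.644).

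**Figure D3:**
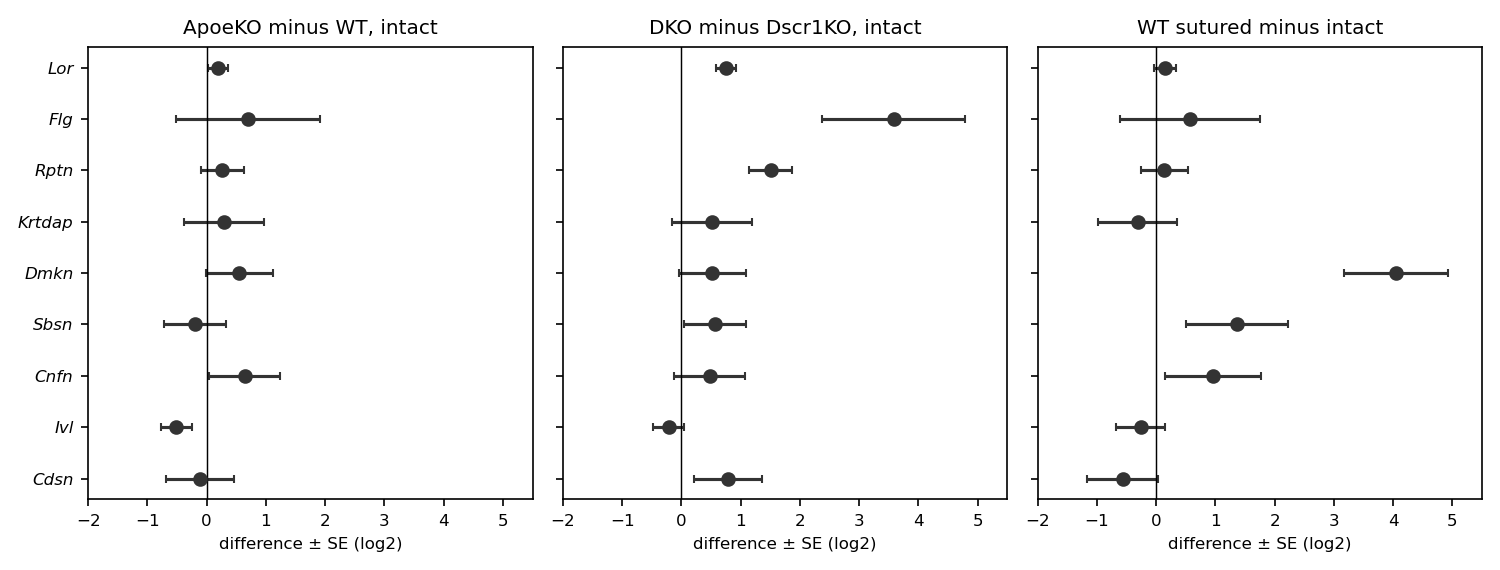
Differences with their standard errors (log2) for the 9 genes in ApoeKO minus WT, DKO minus Dscr1KO, and sutured WT (days 5 and 7 together) minus intact WT. Flg has wide errors in each panel, at 0.70 ± 1.21, 3.58 ± 1.21 and 0.58 ± 1.18, and Dmkn stands at 4.05 ± 0.88 after suturing.

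Suturing of WT corneas was compared with intact WT, taking days 5 and 7 as a group of 2. The spread within that group therefore includes the day. Dmkn was higher by 4.05 ± 0.88, which did not pass (adjusted p = 0.0602), though both sutured arrays lay above both intact ones. Sbsn differed by 1.36 ± 0.86 (adjusted p = 0.506) and Cnfn by 0.96 ± 0.81 (adjusted p = 0.63). The other 6 genes differed by -0.57 to 0.58. In all, 0 of 9 genes passed, beside 1.57% of all genes (200 genes, and 1857 at an unadjusted p under 0.05). The intact WT arrays of this test also entered the choice of the members. Flg, Rptn and Krtdap were tested only through the intact Dscr1-null arrays. The call for Dmkn turned on the arrays and the constant: its adjusted p was 0.0309 without Dscr1KO replicate 1, 0.0314 without Dscr1KO replicate 2, 0.0226 without the day 7 array, 0.0491 with the smaller constant and 0.432 without WT replicate 2. Over all alternatives it ran from 0.0226 to 0.432. Without the day 7 array the sutured group is 1 array, assumed to vary like the other groups.

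Taken array by array, these differences were larger on day 5 than on day 7. Against the mean of intact WT, Dmkn, Sbsn and Cnfn were higher by 5.54, 2.86 and 2.19 in sutured WT at day 5. At day 7 the differences were 2.56, -0.14 and -0.27. From day 5 to day 7 in WT, the differences of the same genes were -2.99, -3.0 and -2.46, with -1.36 for Ivl and -1.30 for Flg. Thus 5 of 9 genes were lower by at least 1, against 2% of all genes. Among them, Flg read 10.7 and then a dim 2.2, and was tested only through the intact Dscr1-null arrays. Cdsn was higher by 1.07 and Rptn, between dim readings, by 0.76. Krtdap, next to Dmkn in the genome, stayed dim on both days. With 1 array for each day there is no replicate check of these differences.

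Relative to the mean of intact Dscr1KO, sutured WT at day 5 reached 14.1% for Dmkn, 11.3% for Cnfn and 11.1% for Sbsn. Against replicate 1 alone the shares were 34.8%, 33.5% and 26.6%, and against replicate 2 alone 8.85%, 6.78% and 7.02%. It reached 0.66% for Lor, 0.081% for Rptn and 0.079% for Krtdap. The sutured day 5 array thus held the granular layer genes Dmkn, Sbsn and Cnfn without the levels of Lor, Rptn or Krtdap seen in the intact Dscr1-null corneas. Cdsn, at 12.1, was below intact WT on that array.

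The sutured Dscr1KO cornea did not carry the pattern of the intact Dscr1KO corneas. At day 5 it read 8.6 for Lor against a mean of 1904 in intact Dscr1KO, 4.1 against 1597 for Rptn and 2.4 against 4574 for Krtdap. Compared with sutured WT on the same day, Dmkn differed by -3.25, Cnfn by -2.99, Sbsn by -2.36, Cdsn by -1.34 and Flg by -1.21. That is 5 of 9 genes lower by at least 1, against 1.94% of all genes, with a median over the 9 of -1.21 against 0.05 over all genes. The median is the value of Flg, which read 2.6 against 10.7 and was tested only through the intact Dscr1-null arrays. Cdsn read 2.6 against 12.1, so both genes were dim in sutured Dscr1KO. Rcan1 read 479.1 on this array and 663.6 in sutured WT at day 5. Xist read 6 on the sutured Dscr1KO array, against 4104 and 5385.2 in intact Dscr1KO. Between sutured and intact Dscr1KO, suturing and Xist status therefore cannot be told apart.

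At day 7 the Dscr-1 Tg cornea differed upward from WT for Cnfn by 3.08, for Dmkn by 1.79 and for Krtdap by 1.15, the last between dim readings of 5.5 and 0.5. These 3 of 9 genes were higher by at least 1, against 0.755% of all genes. Krtdap among them was tested only through the intact Dscr1-null arrays. Sbsn was higher by 0.79, and Lor and Rptn differed by -0.15 and -0.11. Rcan1 read 548.3 on the Dscr-1 Tg array and 579.7 in sutured WT at day 7, so the label is not a measured gain there. Neutrophil markers, summed over 9 genes, had the same order as Dmkn over the sutured arrays, from 11380 (WT, day 5) through 6364 (Dscr-1 Tg) and 2464 (WT, day 7) to 1404 (Dscr1KO). S100a8 and S100a9 made up 73.3% to 94.8% of these sums. The other 7 markers summed to 596.2, 436, 659 and 372.1 in that order of arrays, which is not the order of Dmkn, and Mmp9 was highest in WT at day 7 (281.1). The part of neutrophil RNA in the result was not tested.

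**Figure D4:**
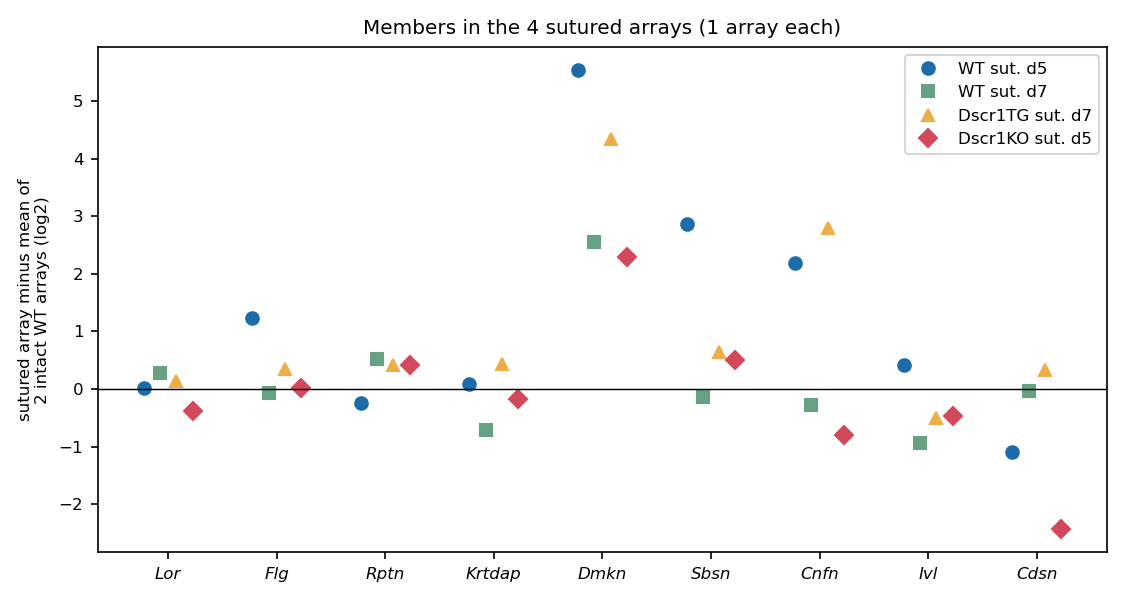
Difference of each sutured array (1 array per group) from the mean of 2 intact WT arrays, for the 9 genes, on the log2 scale. Dmkn lies between 2.30 and 5.54 in the 4 sutured arrays, Cnfn is highest in Dscr-1 Tg at day 7 (2.81), and Lor and Rptn stay between -0.39 and 0.52.

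Lor, Ivl, Flg and Rptn belong to the epidermal differentiation complex, a cluster of envelope genes on chromosome 3, and in RefSeq order (GRCm38.p6) Lor and Rptn are the outermost of the 4. Between them lie 45 other protein-coding genes, of which 30 were measured and 22 passed the filter. In the average over both Apoe labels, 22 of these 22 were higher without Dscr1 and 0 lower, with a median of 4.56 (limma, adjusted p under 0.05; 16.2% of all genes tested were higher and 15.3% lower). Of the 22, 9 passed the filter only through the intact Dscr1-null arrays, which favours a higher reading there without fixing the call. Of the same 22, 7 rest on probe sets that match several transcripts, and 18 were higher without overlap of the groups, against 16.7% of all genes. The stretch itself was bounded by Lor and Rptn, which were chosen with this contrast known, so these counts are a description. The differences ran from 0.97 for Lce3a to 8.6 for Sprr3. Ivl, with Sprr1a (5.33) before it and Smcp, Lce1a1 (4.47) and Lce1b (3.98) after it among measured genes, was the member that differed downward inside this run. Smcp was below the filter.

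**Figure D5:**
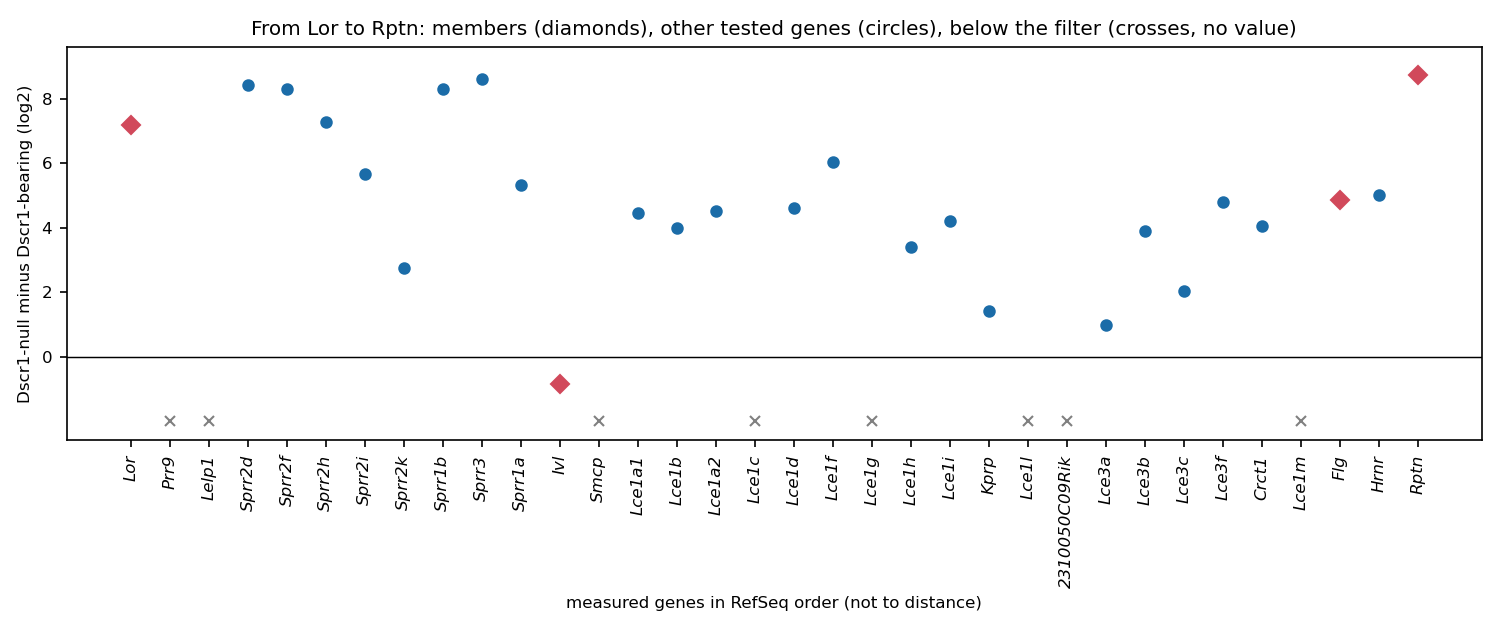
Difference between intact Dscr1-null and Dscr1-bearing corneas (log2) for the measured genes from Lor to Rptn in genome order, not drawn to distance; diamonds are Lor, Ivl, Flg and Rptn, circles the 22 other genes tested, and crosses 8 genes below the filter, which have no value. The circles all lie above 0, from 0.97 to 8.6, and Ivl lies at -0.84.

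Genes beside the members were read in the same way, against 16.2% higher and 15.3% lower over all genes. Of 10 measured genes flanking the stretch from Lor to Rptn, 6 were tested and 3 were higher. These were the calprotectin genes S100a8 (7.44) and S100a9 (5.75), also neutrophil markers, and Them4 (0.93). Around Sbsn, Dmkn and Krtdap, 4 of 10 flanking genes were tested and 1, Cd22, a gene of B cells, was higher by 1.57, while Tmem147 (0.22) and Ffar2 (0.15) did not pass. Around Cdsn, 9 were tested, 3 were higher and 1 lower. Psors1c2 and 2300002M23Rik, close to Cdsn, were higher by 2.83 and 6.10, and Ddr1, a collagen receptor, was lower (-1.23). Around Cnfn, 8 were tested, 2 were higher and 1 lower, led by Cxcl17 at 2.35.

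The rest of the cornification programme was read from lists of genes that are not members. Of 11 Lce genes tested, 11 were higher without Dscr1, with a median of 4.2, among them Lce1f (6.04), Lce3f (4.79), Lce1d (4.61) and Lce1a2 (4.50). All 11 are among the 22 genes between Lor and Rptn. Of them 6, Lce1f, Lce1d and Lce1a2 included, passed the filter only through the intact Dscr1-null arrays, which favours a higher reading there. The other 5 were higher as well, and the filter at the 60th percentile left 5 Lce genes, all higher. Of 14 barrier lipid genes, 12 were higher and 0 lower (median 2.09), with Elovl4, which elongates very long fatty acids, higher by 5.29, Sult2b1 by 4.61, Sptlc3 by 4.22 and Nipal4 by 3.18. Sult2b1, Sptlc3 and Nipal4 passed the filter only through those arrays; of the remaining 11 genes 9 were higher, and at the 60th percentile filter 7 of 9. Of 6 genes of transglutaminases and their regulation, 4 were higher and 1 lower (median 1.48): Tgm3 and Tgm1, which cross-link the envelope, were higher by 5.95 and 2.06 and Serpinb2 by 5.92, while Tgm2, the widespread tissue form, was lower (-1.24). Tgm3 read 1.5 to 11 outside the intact Dscr1-null arrays and was tested only because it was bright in them. Of 4 suprabasal keratins, Krt1 (5.33) and Krt10 (4.86) were higher, and Krt78 (-0.09) and Krt80 (-0.31) did not pass. These counts, and those of the lists below, stand beside 16.2% higher and 15.3% lower over all genes, whose median was -0.02. Of all genes that would pass the filter without the intact Dscr1-null arrays, 14.8% were higher and 15.8% lower.

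Other lists were mixed. Of 13 further envelope and S100-fused proteins, 4 were higher and 2 lower (median 0.21): Hrnr, hornerin, which passed the filter only through the Dscr1-null arrays, by 5.0, Crct1 by 4.05 and Lgals7 by 3.71 upward, and Kprp by 1.40, while the envelope scaffolds Scel and Evpl were lower (-0.71 and -0.66). Without any of 6 intact arrays, the 4 of WT and ApoeKO and both of DKO, left out in turn, the lower genes of this list numbered 1. Of 12 genes of filaggrin processing and granular proteases, 4 were higher and 3 lower (median 0.22): the protease gene Klk7 (4.44, likewise tested only through the Dscr1-null arrays), the protease inhibitor gene Spink5 (2.62) and Blmh (1.12), which breaks filaggrin down, were higher, and Prss8 was lower (-0.94). Casp14, the caspase of cornifying keratinocytes, read 15.9 to 32.6 on all arrays and did not pass (-0.27 ± 0.22, adjusted p = 0.394). Of 10 corneodesmosome and desmosome genes, Dsc1, the desmocollin of upper skin layers, was higher by 5.02, and Dsg1a and Dsc3 were lower (-1.83 and -0.71).

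Of 25 regulators of keratinocyte differentiation, 7 were higher and 9 lower (median 0.24), against 16.2% and 15.3% of all genes. Pou3f1 rose by 2.73, Fosl1, an AP-1 subunit, by 2.58, Foxn1 by 2.09 and Cebpb by 1.46. Pou3f1 and Foxn1 were tested only through the intact Dscr1-null arrays, and at the 60th percentile filter 4 of 21 were higher. Among those lower were Tfap2c (-0.97), Elf3 (-0.96), Hes1 (-0.88) and Notch3 (-0.82). Of the other AP-1 subunits listed, Fosl2, which read 1169.7 to 2533.8, was lower (-0.73, adjusted p = 0.00315), and Junb (0.32) and Jund (0.23) did not pass. Without WT replicate 1, WT replicate 2 or ApoeKO replicate 2 the lower genes numbered 5 each time, and without Dscr1KO replicate 1 the higher genes numbered 12. Fosl1 read 4.4 and 107.4 in the intact Dscr1KO arrays and 146.2 in sutured WT at day 5, the array in which Dmkn and Sbsn were also high. It read 38.1 in sutured Dscr1KO, 21.2 in Dscr-1 Tg and 13.3 in sutured WT at day 7, which is not the order of Dmkn. In Dscr1KO replicate 1, with Fosl1 at 4.4, Dmkn read 1612.2. Klf4, needed for the skin barrier, read 4315.3 to 6549 on all arrays and did not pass (-0.25 ± 0.11, adjusted p = 0.121).

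Marker lists of other cell types were read beside these genes. Of 11 conjunctiva and goblet cell genes tested, 7 were higher and 2 lower, against 16.2% and 15.3% of all genes. Muc5ac (4.98), Krt4 (4.92) and Muc5b (4.19) were higher, while Cldn10 (-3.13, adjusted p = 0.0187) and Fcgbp (-0.68, adjusted p = 0.0343) were lower. Muc5ac, Muc5b and Spdef passed the filter only through the intact Dscr1-null arrays, and of the other 8 genes 4 were higher and 2 lower. The summed level of the 12 measured genes was 2777 to 4089 in Dscr1-bearing intact corneas, 15680 to 21040 in Dscr1-null intact corneas and 6732 to 11850 in sutured corneas. The goblet cell gene Tff3 read 5.7 or less on all arrays. Hair follicle markers stayed dim, summing over 17 genes to 78.5 to 140.4 on all 12 arrays, and 0 of 3 tested genes passed. The 8 measured markers of sebaceous and meibomian glands summed to 49.7 to 102.3 in Dscr1-bearing and 89.4 to 169.9 in Dscr1-null intact corneas, with Cidea higher by 3.38 and Krt79 at 7.4 to 15.2 on all arrays. Of 8 neutrophil genes tested, 8 were higher, 3 of which (Mmp8, Ngp and Cxcr2) were tested only through those arrays. The summed level of the 9 measured genes was 149.8 to 317.8 in Dscr1-bearing against 8952 to 20120 in Dscr1-null intact corneas. Within the Dscr1-null sums, S100a9 read 4268.9 to 10318.8 and S100a8 3892.7 to 9010.6, so these genes held a large part of them.

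Markers of corneal epithelium did not disappear where the cornified genes were high. Their sum over 12 genes was 44420 to 62210 in Dscr1-bearing and 41560 to 57190 in Dscr1-null intact corneas. Krt14, a basal keratin, was higher by 2.11, while Aldh1a1, Slurp1, Pax6 and Upk1b were lower (-1.75, -1.5, -1.18 and -0.99). Lens markers were lower for 12 of 14 genes. Their sums were 11380 and 8629 in WT, 2140 and 1625 in ApoeKO, and 549.9 to 1352 in Dscr1-null intact corneas. Sutured WT gave 1678 at day 5 and 9024 at day 7, so the lens signal also varied among arrays that carry Dscr1. Of 8 melanocyte genes 5 were lower and 1 higher, of 4 skeletal muscle genes 1 was lower, and of 6 photoreceptor genes 0 passed. The part that other tissue in the dissected corneas had in the levels of the 9 genes was not tested.

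Across the 12 arrays, 8 of the genes moved together. The Pearson correlation of each with the mean of the other 8 was highest for Sbsn (0.977), Krtdap (0.970), Lor (0.959), Rptn (0.951) and Cnfn (0.949), and lower for Dmkn (0.907), Cdsn (0.876) and Flg (0.791). For Ivl it was -0.665. These values describe 12 arrays that share their scaling and fall into separate groups, so they mostly restate the difference between Dscr1-null and other intact corneas. The pair most alike was Lor and Rptn (0.994), and Dmkn with Ivl stood at -0.54.

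The genes outside the list most like the mean profile of the 9 were Sprr3 (r = 0.987), Teddm3 (0.985), 2300002M23Rik (0.980), Klk8 (0.976) and Them5 (0.975). Rdh12, Tmem54, Calm4, Klk10 and Pitx1 followed at 0.974 to 0.971. Sprr3, an envelope protein, lies inside the complex between Lor and Ivl, and 2300002M23Rik lies beside Cdsn. Calm4, a calmodulin-like gene, read 16.7 to 30.8 in Dscr1-bearing and 2520.4 to 6528 in Dscr1-null intact corneas. Klk8 and Klk10 are kallikrein proteases, and their differences for Dscr1 loss were 5.02 and 4.37. Genes most like Ivl were Dhx32 (0.904), Mrgbp (0.897), Oser1 (0.886), Ccdc120 (0.860) and Cdv3 (0.848). Over the 8 intact arrays alone, 2 of the 10 genes most like the mean profile stayed among the 10, and by Spearman's rho 1 did, so the ranking depends on the measure.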

How the data were processed

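The deposited values are linear probe-set intensities. The authors brought every array to the same trimmed mean of 100, as the values show when 2% is trimmed from both ends. Per the labels' protocols, RNeasy-extracted total RNA (100 ng) was labelled by the Affymetrix procedure, while the software behind the signals is not stated in the labels. Of 45101 probe sets, 34958 carry 1 gene symbol and were used, 932 carry several and 9211 none. Values were transformed as log2(intensity + 3.6), 3.6 being the 20th percentile of all values. Genes at or above the 40th percentile of mean log2 (3.712) were tested, 12711 of 18194.

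The limma package (version 3.58.1, R 4.3.3) gave the differences (1 coefficient per group, intensity trend, Benjamini-Hochberg adjustment over 12711 genes at 0.05) on the 8 intact arrays, plus sutured WT as a group of 2 for suturing. The fit was tested on simulated data. P-values set a difference against the spread between arrays of the same group, and in sutured WT that spread includes the day. Members and lists were chosen with earlier results of these data known. The text names all members, up to 4 list genes with the largest changes past the threshold, up to 3 of each marker list, neighbours in RefSeq order, and the 10 genes most like the members. Further genes named from the lists, such as Casp14, Klf4 and Tff3, were chosen after their values were seen. Replicate numbers did not pair the samples: over 6 pairs of same-numbered arrays the correlation of deviations was -0.05 to 0.07. Alternatives were other constants, filters and scaling, no trend, fewer groups, a replicate block, single probe sets, arrays left out, and, added after results were seen, the brightest probe set by mean intensity. Figures were drawn with matplotlib 3.10.9.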

Additional observations from a re-analysis of the deposited data

Results flagged for a closer look

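For Dmkn, Sbsn and Cnfn, the difference between Dscr1KO and WT was opposite in direction in intact and in sutured corneas. In intact corneas both Dscr1KO arrays lay above both WT arrays, while at sutured day 5 the Dscr1KO array lay below the WT array, by -3.25 for Dmkn, -2.36 for Sbsn and -2.99 for Cnfn on the log2 scale. This change of direction was not tested, since each sutured genotype has 1 array on that day. Xist was high in both intact Dscr1KO arrays and low in intact WT and in both sutured arrays.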

How the results depend on the processing

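The limit of these data is 2 arrays per intact group and 1 per sutured group. Replicate numbers do not pair the arrays, and with the replicate block the interaction called 2 genes in place of 1, DKO against Dscr1KO 2 in place of 3, with 0 members in either. For ApoeKO against WT the 3 genes called became 1 with the 10th percentile constant, 0 with the filter at the 60th percentile, 1 without the trend, 203 with only the groups compared and 9 when ApoeKO replicate 1 and Dscr1KO replicate 2, the pair of libraries in doubt, were left out together (without both libraries, below). For DKO against Dscr1KO the 3 became 1 with that filter, 0 with only the groups compared and 21 without both libraries, where Ivl stood at 0.097. For the interaction the 1 became 3 with the 30th percentile constant, 2 with no filter, 0 with the filter at the 60th percentile and 0 without both libraries. There Krtdap stood at -0.0691 with the 10th percentile constant, Dmkn at 0.0674 with the 30th, 0.11 after quantile normalization and 1.12 without both libraries, and Cnfn at 0.92 without both. For suturing, 1 member passed with the 10th percentile constant (Dmkn, 4.36), the genes called were 583 with only the groups compared and 324 without both libraries, and Lor stood at -0.21 by its probe set brightest in mean intensity. For the Dscr1 average, 2580 genes were called without both libraries in place of 4003. Of the 10 genes most like the members, 2 were shared with the intact arrays alone and 1 with Spearman's rho. Leaving out each array in turn gave these ranges. Genes called ranged from 0 to 16 for ApoeKO against WT, 0 to 107 for DKO against Dscr1KO, 0 to 50 for the interaction, 0 to 549 for suturing and 2150 to 5670 for the Dscr1 average. Members called ranged from 0 to 2 for DKO against Dscr1KO, 0 to 1 for the interaction and 0 to 1 for suturing. For ApoeKO against WT, Rptn ranged from -0.17 to 0.69, Krtdap from -0.43 to 1.0, Sbsn from -0.43 to 0.046 and Cdsn from -0.42 to 0.19. For DKO against Dscr1KO, Flg ranged from 1.28 to 5.89, Krtdap from -0.54 to 1.59, Dmkn from -0.46 to 1.51, Sbsn from -0.395 to 1.52, Cnfn from -0.67 to 1.63, Ivl from -0.53 to 0.097 and Cdsn from -0.22 to 1.79. For the interaction, Flg ranged from 0.575 to 5.19, Krtdap from -0.83 to 1.30, Dmkn from -1.01 to 0.96, Sbsn from -0.20 to 1.72, Cnfn from -1.31 to 0.99, Ivl from -0.0195 to 0.61 and Cdsn from -0.11 to 1.91. For suturing, Flg ranged from -0.0728 to 1.23, Rptn from -0.29 to 0.57, Krtdap from -1.03 to 0.41, Sbsn from -0.14 to 2.86, Cnfn from -0.27 to 2.19 and Ivl from -0.94 to 0.42. The cause of these changes was not tested.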
